A study of Mus musculus with 12 samples.

Results

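The genes described here are 9 chemokine ligands, Ccl2, Ccl3, Ccl4, Ccl6, Ccl7, Ccl9, Ccl12, Cxcl10 and Cxcl12, and Cxcr4, the receptor of Cxcl12, which are 10 of the 18193 genes measured. They were chosen by name from the chemokine family. The measured values entered that choice, since Ccl12 was known to be among the largest rises in the knockout at E10.5 (E gives days of embryonic development), where its log2 change of 2.47 ranked 5 among all genes. Expression was measured on Affymetrix mouse arrays in pools of mouse yolk sacs. The 4 groups were wild type (Hypb+/+) and knockout (Hypb-/-) at E9.0 and at E10.5, all of strain 129Sv/C57BL/6, with 3 biological repeats in each group and 4 yolk sacs in each pool. Hypb is the older name of Setd2, which encodes a histone H3 lysine methyltransferase. Per the design text, knockout embryos look nearly normal at E9.0 and are close to death at E10.5. The labels give neither the deleted part of the gene nor a treatment, and a pool averages its embryos.

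Chemokines are small secreted proteins that direct the movement of leukocytes and other cells through receptors coupled to G proteins. Ccl2, Ccl7 and Ccl12 draw monocytes through Ccr2. Ccl3 and Ccl4 act on macrophages and lymphocytes, Ccl3 in part through Ccr1. Ccl6 and Ccl9 are ligands of Ccr1 made by myeloid cells. Cxcl10, named for its induction by interferon, acts through Cxcr3. Cxcl12 is made by stromal and vascular cells, guides blood progenitors and endothelial cells through Cxcr4, and is removed by the scavenger receptor Ackr3. The yolk sac makes the first blood vessels, red cells and macrophages of the embryo.

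All values are log2 expression levels after the authors' RMA normalisation, a level is compared only between arrays of the same probe set, and no depth exists for arrays, so their number limits the precision. The endoderm genes Afp and Ttr, named here as a check of the tissue, lay between 13.71 and 14.23 on all 12 arrays. Setd2 was lower on every knockout array, with a log2 change of -1.29 at E9.0 and -0.83 at E10.5. Hybridisation and spike controls set replicate 3 of each group apart: BioC minus BioB was 0.14 and 0.055 on the 2 E9.0 arrays of replicate 3 and at least 1.54 on the others. The dap spike differed by 1.85 and 1.87 between its 3' and 5' probe sets on the 2 E10.5 arrays of replicate 3, against 1.23 to 1.44 on the other E10.5 arrays. Replicate 3 is not called a batch in the labels, so the E10.5 knockout changes, and other changes where they differ clearly, are also given for replicates 1 and 2 and for replicate 3 alone, where 1 array is set against 1 and no test exists. In bulk pools, fewer cells of a type and less RNA per cell cannot be told apart.

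In the RefSeq annotation of GRCm38.p6 the 7 Ccl genes lie on chromosome 11, in the order Ccl2, Ccl7, Ccl11, Ccl12, Ccl8 in one stretch and Ccl5, Ccl9, Ccl6, Ccl3, Ccl4 in the other. Cxcl10 is on chromosome 5, Cxcl12 on chromosome 6 and Cxcr4 on chromosome 1. Of the 10 genes, 7 had an entry in the RefSeq promoter table, and Ccl2, Ccl4 and Ccl7 are named only. The 250 bases directly before the annotated start are shown for the 3 of these genes that were higher on every knockout array at E10.5 (Ccl12, Cxcl10 and Ccl3) and for Ccl9, which was lower. Capitals mark matches on either strand to the interferon-stimulated response element core GAAANNGAA, to the kappa B consensus, and to the hypoxia response element core ACGTG or GCGTG.
Ccl12 (chr11:82101595-82101844, plus strand): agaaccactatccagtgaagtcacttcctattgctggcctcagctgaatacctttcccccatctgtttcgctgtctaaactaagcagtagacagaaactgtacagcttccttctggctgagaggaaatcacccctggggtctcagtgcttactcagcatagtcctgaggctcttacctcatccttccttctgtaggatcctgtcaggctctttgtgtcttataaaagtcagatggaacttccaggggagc
Cxcl10 (chr5:92348890-92349139, minus strand): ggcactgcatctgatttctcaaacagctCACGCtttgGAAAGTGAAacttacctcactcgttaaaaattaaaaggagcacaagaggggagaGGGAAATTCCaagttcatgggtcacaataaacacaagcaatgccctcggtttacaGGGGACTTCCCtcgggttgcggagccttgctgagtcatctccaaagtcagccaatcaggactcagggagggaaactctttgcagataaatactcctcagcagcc
Ccl3 (chr11:83649379-83649628, minus strand): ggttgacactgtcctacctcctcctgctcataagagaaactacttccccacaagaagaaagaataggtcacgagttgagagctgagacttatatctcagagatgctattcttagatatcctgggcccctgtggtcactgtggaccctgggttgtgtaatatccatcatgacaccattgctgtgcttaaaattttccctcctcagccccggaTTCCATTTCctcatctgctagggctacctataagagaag
Ccl9 (chr11:83578637-83578886, minus strand): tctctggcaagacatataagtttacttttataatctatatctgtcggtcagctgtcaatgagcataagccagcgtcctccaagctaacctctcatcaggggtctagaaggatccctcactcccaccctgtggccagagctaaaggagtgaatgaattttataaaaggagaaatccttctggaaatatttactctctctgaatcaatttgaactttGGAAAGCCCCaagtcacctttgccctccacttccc
The Cxcl10 window held 1 response element core, 213 to 205 bases before the start, and kappa B matches at 159 to 150 bases and, overlapping each other, at 104 to 94 bases. It also held 1 hypoxia core at 222 to 218 bases. In the Ccl3 window a response element core lay 39 to 31 bases before the start, and in the Ccl9 window a kappa B match lay 35 to 26 bases before it. No match was found in the Ccl12 window, nor in those of Ccl6 and Cxcl12, and the Cxcr4 window held a hypoxia core at 39 to 35 bases. Among all 32851 promoter windows of that length, 7.13% held the response element core, 7.25% the kappa B consensus and 38.6% the hypoxia core. A match describes letters in this window and is no evidence of binding.

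At E9.0 the knockout was compared with wild type on arrays that the comparison behind Ccl12's choice had not used. In limma's test 0 of the 10 genes passed, and 0 had an unadjusted p under 0.05, where 1.18% of all genes were called, 0.55% higher and 0.632% lower. The median log2 change of the 10 genes was 0.02, beside -0.01 over all genes. Ccl3 and Cxcr4 were lower on all 3 knockout arrays than on any wild type array, as were 9.42% of all genes, and 0 were higher on all 3, against 8.56%. Ccl3 read 3.50, 3.41 and 3.43 in wild type and 3.16, 3.27 and 3.33 in the knockout, a log2 change of -0.19 (SE 0.093, adjusted p = 0.451). Cxcr4 read 3.92, 3.80 and 3.84 in wild type and 3.53, 3.58 and 3.52 in the knockout, a log2 change of -0.31 (SE 0.24, adjusted p = 0.700). Neither gene passed the test, although the arrays of each separated by genotype. For Cxcr4 the SD was 0.061 in wild type and 0.032 in the knockout at E9.0. It was 0.65 in the E10.5 knockout, which enters the same SE. In the alternative fits, 0 of the 10 genes were called at E9.0. The log2 changes of the other 8 genes lay between -0.18 for Cxcl12 and 0.29 for Ccl9 (SE 0.17, adjusted p = 0.570), and their arrays overlapped. The change of Cxcl10 was 0.41 in replicates 1 and 2 and 0.01 in replicate 3.

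At E10.5 the same comparison had chosen Ccl12, so the values of the 10 genes are a description and carry no test. Ccl12, Ccl3, Cxcl10 and Ccl2 were higher on every knockout array than on any wild type array and Ccl9 was lower on every one, whereas Ccl4, Ccl6, Ccl7, Cxcl12 and Cxcr4 overlapped. The same 4 higher and 1 lower genes also passed the limma threshold, at which 7.28% of all genes were called, 4.12% higher and 3.16% lower. Among all genes, 11.5% were higher and 11.3% lower on all 3 knockout arrays. The median log2 change of the 10 genes was 0.32, beside -0.01 over all genes.

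Some macrophage and myeloid markers differed in the same comparison, and their part in the values of the 10 genes was not tested. The level of the 20 macrophage markers, summed after undoing the log2 scale, ranged from 1285 to 1408 in wild type and 1382 to 1602 in the knockout at E9.0. At E10.5 it ranged from 2246 to 2338 in wild type and 3083 to 3103 in the knockout. These sums weigh the brightest genes most. By log2 change, Fcer1g (1.38), Csf1r (0.79), Cx3cr1 (0.65) and Tyrobp (0.48) rose at E10.5 and 0 fell. These are 4 of 20 markers, where 7.28% of all genes were called, and the other markers were not called. The list median was 0.11 and the lowest change -0.38. With 1 array left out, Csf1r passed in 9 of 12 fits and Tyrobp in 6 at E10.5 and 3 at E9.0, while Fcer1g passed in all 12 at both stages and Cd68 in 10 at E9.0. At E9.0 Fcer1g (1.29) and Cd68 (0.65) rose and Tyrobp (-0.61) fell, where 1.18% of all genes were called. Of 10 granulocyte and early myeloid markers Mpo (1.56) and Ltf (1.29) rose at E10.5, Ltf not without wild type replicate 1 or 2. The list median was 0.01, and the sums ran from 321 to 367 in wild type and 399 to 560 in the knockout. The 8 lymphocyte markers gave 0 calls with limma in both knockout comparisons, with 2 at an unadjusted p under 0.05 at E9.0 and 0 at E10.5, and E10.5 sums of 220 to 236 and 213 to 233.

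**Figure D1:**
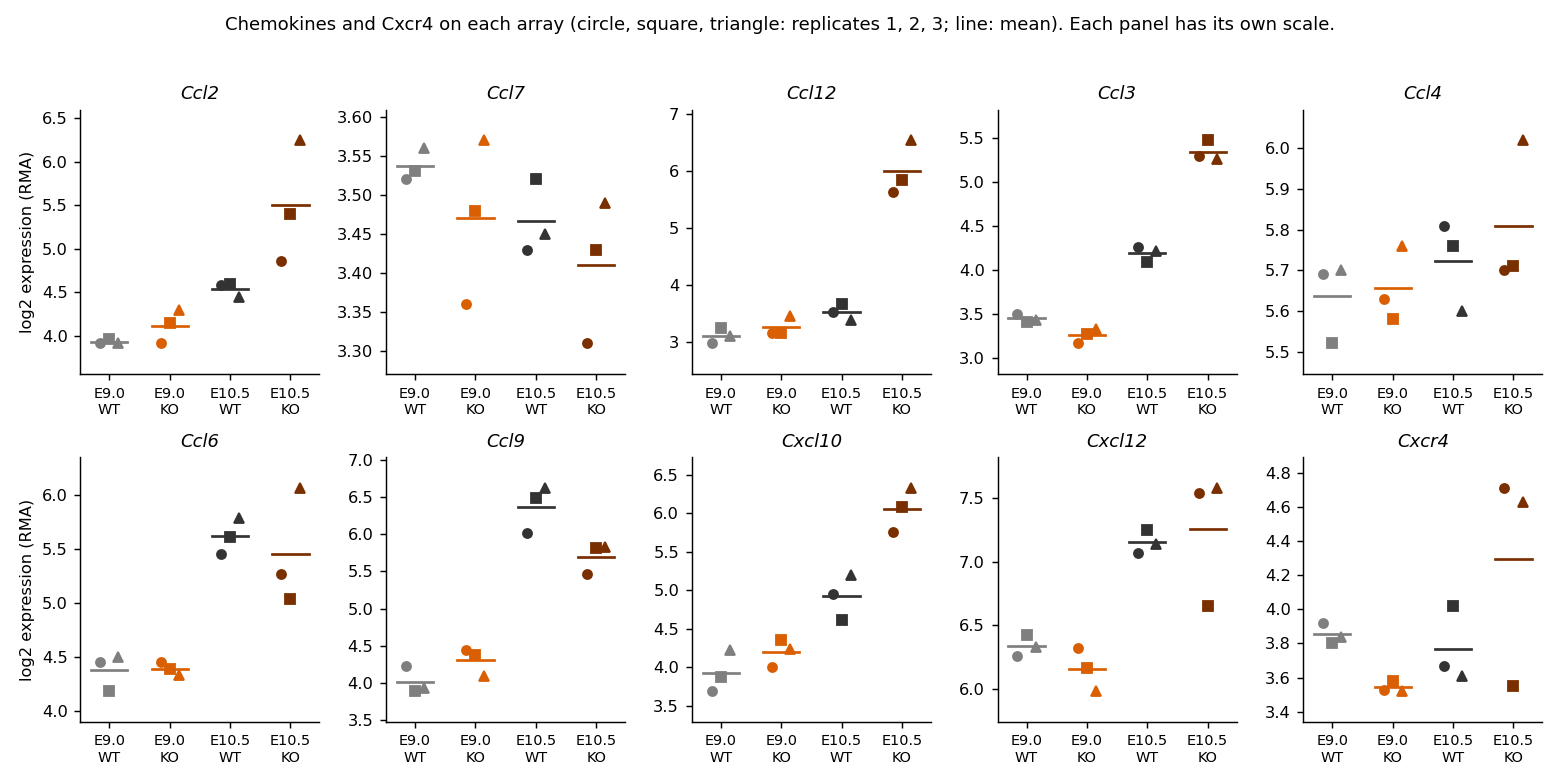
Log2 expression (RMA, vertical axis, its own scale in each panel) of the 10 genes in the 4 groups, with circles, squares and triangles for replicates 1, 2 and 3 and a line for the group mean of 3 arrays. Ccl12 lies between 2.98 and 3.67 on the 9 other arrays and between 5.63 and 6.54 in the E10.5 knockout, and Ccl9 is the gene whose E10.5 knockout arrays all lie below the wild type ones.

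Among the Ccr2 ligands, Ccl12 had the largest difference at E10.5. In the E10.5 knockout it read 5.63, 5.84 and 6.54 (mean 6.00 ± 0.48 SD, n = 3), against 3.53, 3.67 and 3.39 in wild type (3.53 ± 0.14 SD, n = 3). All 3 knockout arrays were far above the wild type ones, and the log2 change was 2.47 (SE 0.19), or 5.55-fold. It was 2.13 in replicates 1 and 2 and 3.15 in replicate 3, and it stayed between 2.21 and 2.66 when any single array was left out. At E9.0 Ccl12 read 2.98, 3.25 and 3.11 in wild type and 3.16, 3.16 and 3.46 in the knockout, which overlap (log2 change 0.15, SE 0.19, adjusted p = 0.864). The E10.5 change exceeded the E9.0 change by a log2 difference of 2.33 (SE 0.27), a value that contains the comparison Ccl12 was chosen by and is not tested. For such stage differences 2 of the 10 genes, Ccl12 and Ccl3, passed the threshold, at which 0.187% of all genes were called, 0.104% higher and 0.0824% lower.

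Ccl2, the best known monocyte attractant of the family, read 4.58, 4.60 and 4.44 in the E10.5 wild type and 4.86, 5.40 and 6.25 in the knockout. The knockout arrays were all higher, but they spread widely (SD 0.70, against 0.087 in wild type) and replicate 3 was the highest. The log2 change was 0.96 (SE 0.25, 1.95-fold), with 0.54 in replicates 1 and 2, 1.81 in replicate 3, 0.59 without knockout replicate 3 and 1.28 without knockout replicate 1. In 6 of the 12 fits that left out 1 array, Ccl2 no longer passed the threshold, namely without any of the 3 E10.5 wild type arrays, E10.5 knockout replicate 2, or replicate 2 of either E9.0 genotype. At E9.0 its arrays overlapped, from 3.91 to 3.96 in wild type and 3.91 to 4.29 in the knockout (log2 change 0.19, SE 0.25, adjusted p = 0.869). Ccl7, which neighbours Ccl2, read between 3.31 and 3.57 on all 12 arrays, with log2 changes of -0.07 at E9.0 (adjusted p = 0.868) and -0.06 at E10.5. Within this stretch Ccl12 and Ccl2 were higher on all E10.5 knockout arrays and Ccl7 overlapped. The neighbours Ccl11 and Ccl8, named for their position after their values were seen, gave log2 changes of -0.12 (adjusted p = 0.533) and -0.0033 (adjusted p = 0.992) there. Like Ccl7, Ccl11 (3.37 to 3.65 at E10.5) and Ccl8 (4.13 to 4.40) read below the median gene level of 6.52. Whether such dim probe sets detect their transcript is not known, so their flat values do not show an unchanged gene.

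Ccl3 and Ccl4, adjacent genes for macrophage inflammatory proteins, gave unlike values at E10.5, separated for Ccl3 and overlapping for Ccl4. Ccl3 read 4.26, 4.09 and 4.21 in the E10.5 wild type and 5.30, 5.48 and 5.27 in the knockout. The arrays of each group lay close together (SD 0.087 and 0.11) and did not overlap, with a log2 change of 1.16 (SE 0.093, 2.24-fold). That change was 1.22 in replicates 1 and 2 and 1.06 in replicate 3, and between 1.10 and 1.20 with any array left out. Ccl3 was thus lower on all knockout arrays at E9.0 and higher on all at E10.5, and the log2 difference between the stages' changes was 1.36 (SE 0.13), not tested for the reason given for Ccl12. Across all genes, 45 (0.247%) were lower on every knockout array at E9.0 and higher on every one at E10.5. Ccl4 read 5.81, 5.76 and 5.60 in the E10.5 wild type and 5.70, 5.71 and 6.02 in the knockout, and 5.52 to 5.76 on the E9.0 arrays. Its log2 change was 0.09 (SE 0.11), with -0.08 in replicates 1 and 2 and 0.42 in replicate 3, and 0.02 at E9.0 (adjusted p = 0.981).

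Ccl9, a Ccr1 ligand of the myeloid lineage, changed at E10.5 in the direction opposite to Ccl12, Ccl3, Cxcl10 and Ccl2. It read 6.01, 6.48 and 6.62 in the E10.5 wild type and 5.46, 5.81 and 5.82 in the knockout, so all knockout arrays were lower. The log2 change was -0.67 (SE 0.17, 1.59-fold), with -0.61 in replicates 1 and 2 and -0.80 in replicate 3. Its value lay between -0.85 and -0.55 with any array left out, and in 3 of those 12 fits it no longer passed, namely without knockout replicate 1 or wild type replicate 2 or 3 of E10.5. The second Ccl9 probe set read 5.17, 5.54 and 5.60 in wild type and 4.14, 4.60 and 5.08 in the knockout, again all lower, with a log2 change of -0.83 (SE 0.23), but in the fit over all probe sets it did not pass the threshold that the first one passed. At E9.0 the sign was the opposite, 0.29 with overlapping arrays, as 4.23, 3.89 and 3.93 in wild type and 4.44, 4.37 and 4.10 in the knockout. Ccl6, its neighbour and also a Ccr1 ligand, read 5.46, 5.61 and 5.79 in the E10.5 wild type and 5.27, 5.04 and 6.07 in the knockout. Those arrays overlapped, and the log2 change of -0.16 (SE 0.21) was -0.38 in replicates 1 and 2, 0.28 in replicate 3, -0.47 without knockout replicate 3 and 0.05 without knockout replicate 2. Without knockout replicate 3, Ccl6 would pass the threshold as lower. At E9.0 it read 4.18 to 4.50 in wild type and 4.33 to 4.45 in the knockout (log2 change 0.01, adjusted p = 0.993). On the second Ccl6 probe set the E10.5 arrays also overlapped, with a log2 change of -0.17 (SE 0.14).

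Cxcl10, the interferon-induced ligand of Cxcr3, read 4.95, 4.61 and 5.20 in the E10.5 wild type and 5.76, 6.08 and 6.33 in the knockout. Every knockout array was higher, and the log2 change of 1.14 (SE 0.19, 2.20-fold) was nearly the same in replicates 1 and 2 (1.14) and replicate 3 (1.13). With any array left out it lay between 0.98 and 1.28. At E9.0 Cxcl10 read 3.69, 3.87 and 4.23 in wild type and 4.01, 4.36 and 4.24 in the knockout, which overlap (log2 change 0.27, SE 0.19, adjusted p = 0.650). The log2 difference between the stages' knockout effects was 0.86 (SE 0.26) and did not pass the threshold.

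**Figure D2:**
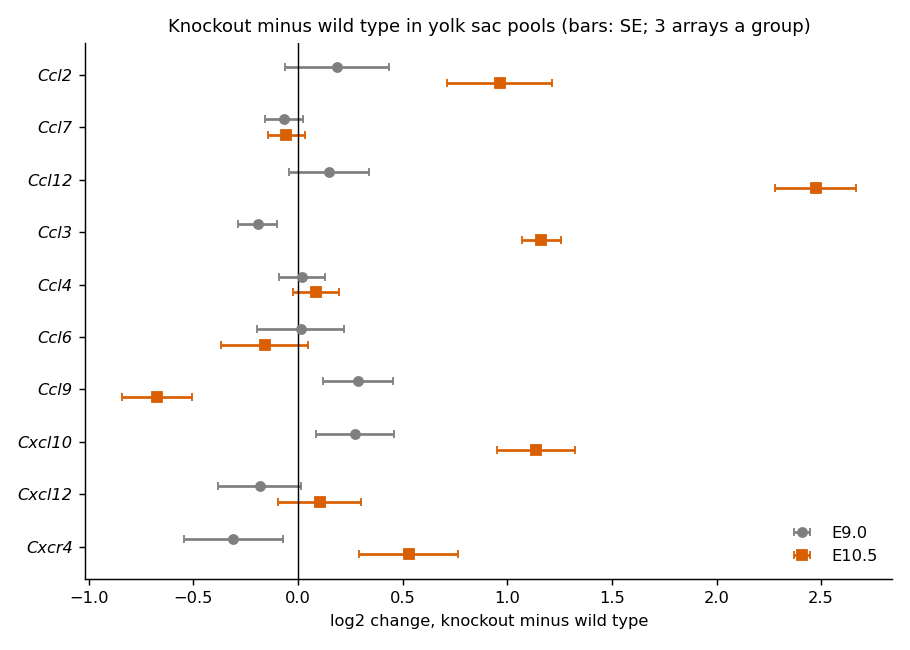
Log2 change, knockout minus wild type (horizontal axis), of each gene at E9.0 (grey circles) and E10.5 (orange squares), with bars for 1 SE from the fit of 12 arrays, 3 in each group. At E9.0 all points lie between -0.31 and 0.29, and at E10.5 they run from -0.67 for Ccl9 to 2.47 for Ccl12.

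Cxcl12, the ligand with a role in vessel and blood progenitor positioning, was read by 3 probe sets. The brightest read 7.07, 7.25 and 7.14 in the E10.5 wild type and 7.54, 6.65 and 7.58 in the knockout. Knockout replicates 1 and 3 were above the wild type arrays and replicate 2 was below them, so the groups overlapped. The log2 change was 0.10 (SE 0.20), -0.065 in replicates 1 and 2, 0.44 in replicate 3, 0.41 without knockout replicate 2 and -0.06 without knockout replicate 3. Replicate 2 was again the lowest knockout array on the second probe set, which read 6.56, 6.82 and 6.35 in wild type and 7.35, 6.75 and 7.26 in the knockout, a log2 change of 0.54 (SE 0.18). The third lay between 5.01 and 5.53 on all arrays, with a log2 change of 0.05 (SE 0.13) and, unlike the others, its highest E10.5 value in knockout replicate 2. At E9.0 all 3 probe sets overlapped between genotypes, and the brightest gave a log2 change of -0.18 (SE 0.20, adjusted p = 0.821).

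Cxcr4, the receptor, split the same way. It read 3.67, 4.02 and 3.61 in the E10.5 wild type and 4.71, 3.55 and 4.63 in the knockout, so that knockout replicates 1 and 3 lay above all wild type arrays and replicate 2 lay below them. The log2 change was 0.53 (SE 0.24, 1.44-fold), 0.29 in replicates 1 and 2, 1.02 in replicate 3, 0.32 without knockout replicate 1 and 0.90 without knockout replicate 2. Without knockout replicate 2 alone, Cxcr4 would pass the threshold as higher. The log2 difference between the stages' knockout changes was 0.84 (SE 0.33), from 0.63 to 1.21 with 1 array left out. It did not pass the threshold with all arrays. Ackr3, the scavenger of Cxcl12, did not split: it read 7.77, 7.80 and 8.21 in the E10.5 wild type and 9.09, 9.22 and 8.97 in the knockout. All 3 knockout arrays were higher, and Ackr3 rose by a log2 change of 1.17 (SE 0.17, 2.24-fold, limma adjusted p = 0.00138), with 1.37 in replicates 1 and 2 and 0.76 in replicate 3, and it passed with any array left out. At E9.0 Ackr3 had a log2 change of 0.37 (SE 0.17, adjusted p = 0.423).

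**Figure D3:**
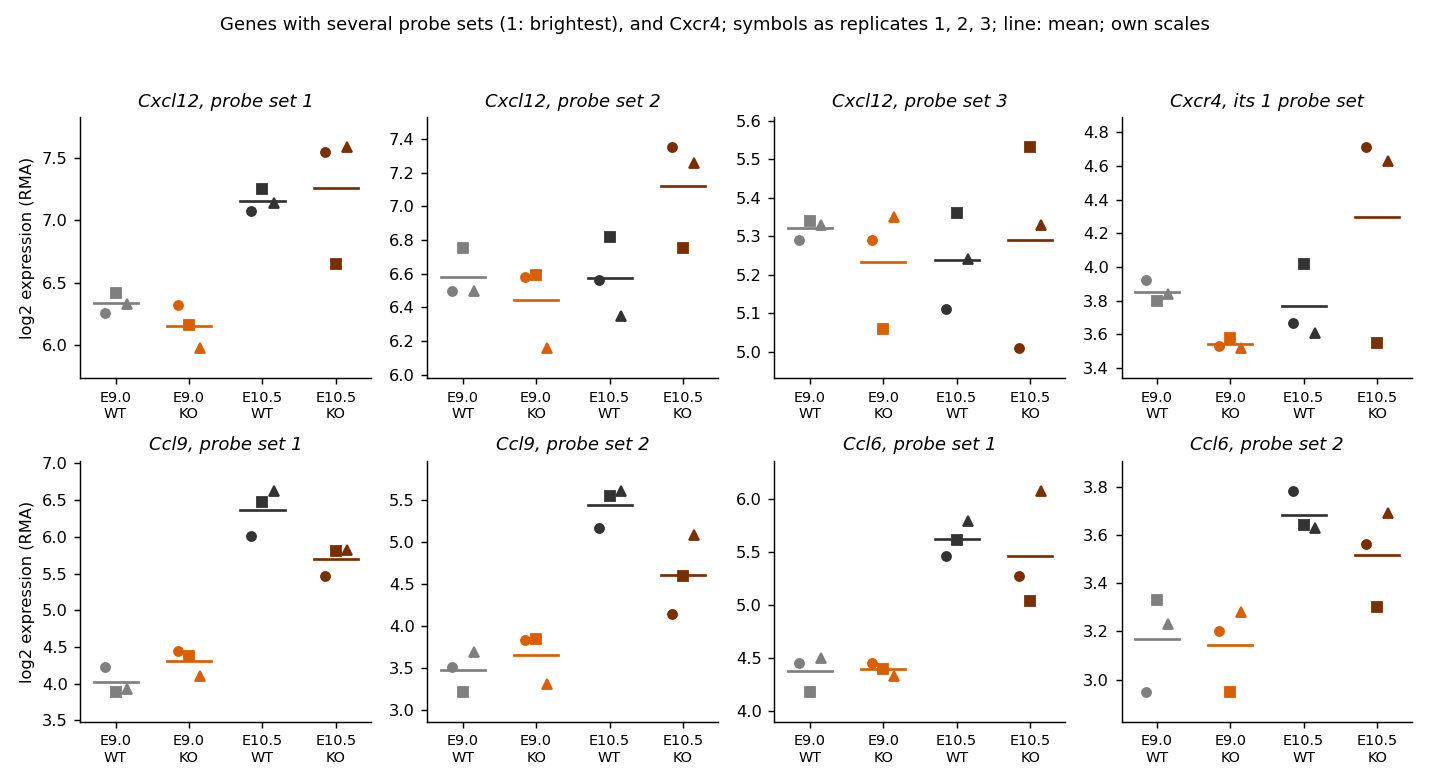
Log2 expression (RMA, vertical axis, own scale in each panel) of every probe set of Cxcl12, Ccl9 and Ccl6 and of Cxcr4 in the 4 groups, with circles, squares and triangles for replicates 1, 2 and 3 and lines for means of 3 arrays. The square of the E10.5 knockout (replicate 2) lies lowest of its group for Cxcr4 and for the brightest 2 Cxcl12 probe sets, and both Ccl9 probe sets are lower in the knockout at E10.5.

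Between E9.0 and E10.5 in wild type, 5 of the 10 genes rose and 0 fell in limma's test, where 22.2% of all genes were called, 13.4% higher and 8.86% lower. On all 3 arrays, 7 of the 10 genes were higher at E10.5 and 0 lower, against 22.7% and 17.3% of all genes. The median log2 change was 0.68, beside 0.03 over all genes. This comparison shares the 3 wild type E10.5 arrays with the one that chose Ccl12. The 20 macrophage markers moved in the same interval: 14 rose and 0 fell, with a median log2 change of 0.95, and their part in these rises was not tested. The myeloid ligands of Ccr1 led: Ccl9 rose from 4.02 ± 0.19 to 6.37 ± 0.32 (SD, n = 3 each), a log2 change of 2.35 (SE 0.17, 5.11-fold, limma adjusted p = 3.41e-06). The second Ccl9 probe set rose by 1.96 (limma adjusted p over all probe sets = 0.000181). Ccl6 rose by a log2 change of 1.24 (SE 0.21, 2.37-fold, limma adjusted p = 0.00113), and its second probe set by 0.51 (limma adjusted p over all probe sets = 0.0202).

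Cxcl10 rose by a log2 change of 0.99 (SE 0.19, 1.99-fold, adjusted p = 0.00247) and Ccl3 by 0.74 (SE 0.093, 1.67-fold, adjusted p = 0.00018). The brightest Cxcl12 probe set rose by a log2 change of 0.82 (SE 0.20, 1.76-fold, adjusted p = 0.0105), whereas the other 2 gave -0.0067 and -0.08 and did not pass. With the mean of its probe sets, Cxcl12 had a log2 change of 0.24 (adjusted p = 0.167), so its rise rests on 1 probe set. Each of these 5 genes passed with any single array left out. Ccl2 was higher on all E10.5 wild type arrays than on any E9.0 one, with a log2 change of 0.61 (SE 0.25, adjusted p = 0.104). It would pass without knockout replicate 1 (adjusted p = 0.0292) or replicate 3 (adjusted p = 0.00697) of E10.5, which enter only the shared spread, with replicates 1 and 2 alone (0.66, adjusted p = 0.0281), and with only the arrays of the groups compared (adjusted p = 0.00205). Ccl4, Ccl7 and Cxcr4 had log2 changes of 0.09 (adjusted p = 0.644), -0.07 (adjusted p = 0.641) and -0.09 (adjusted p = 0.847), and Ccl12 one of 0.42, given with no test.

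In the knockout the same interval is described with no test, since its E10.5 arrays chose Ccl12. There 8 of the 10 genes passed the threshold as higher, where 23.6% of all genes were called, 14.4% higher and 9.17% lower. On all 3 arrays 7 were higher and 0 lower, against 20.7% and 13.8%. The log2 change was 2.74 (SE 0.19, 6.70-fold) for Ccl12, 2.10 (SE 0.093, 4.28-fold) for Ccl3, 1.85 (SE 0.19) for Cxcl10 and 1.39 (SE 0.25) for Ccl2, each larger than in wild type. For Ccl9 it was 1.39 (SE 0.17), smaller than in wild type. These differences from wild type passed the threshold for Ccl12 and Ccl3, and not for Cxcl10, Ccl2 and Ccl9. For Ccl6 the log2 change was 1.07 (SE 0.21), within its error of the wild type value, with 0.735 in replicates 1 and 2, 1.74 in replicate 3 and 1.28 without knockout replicate 2 of E10.5. Its second probe set gave 0.37 and did not pass in the fit over all probe sets, and the mean of its probe sets gave 0.72. The brightest Cxcl12 probe set gave 1.10 (SE 0.20), with 0.855 in replicates 1 and 2 and 1.60 in replicate 3, while the others gave 0.68 and 0.06 and the mean of the probe sets 0.61. Cxcr4 gave 0.75 (SE 0.24) with overlapping arrays, from 0.55 to 1.13 with 1 array left out. It did not pass without knockout replicate 1 or 3 of E10.5 or any E9.0 knockout array. Ccl4 and Ccl7 gave 0.15 and -0.06.

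**Figure D4:**
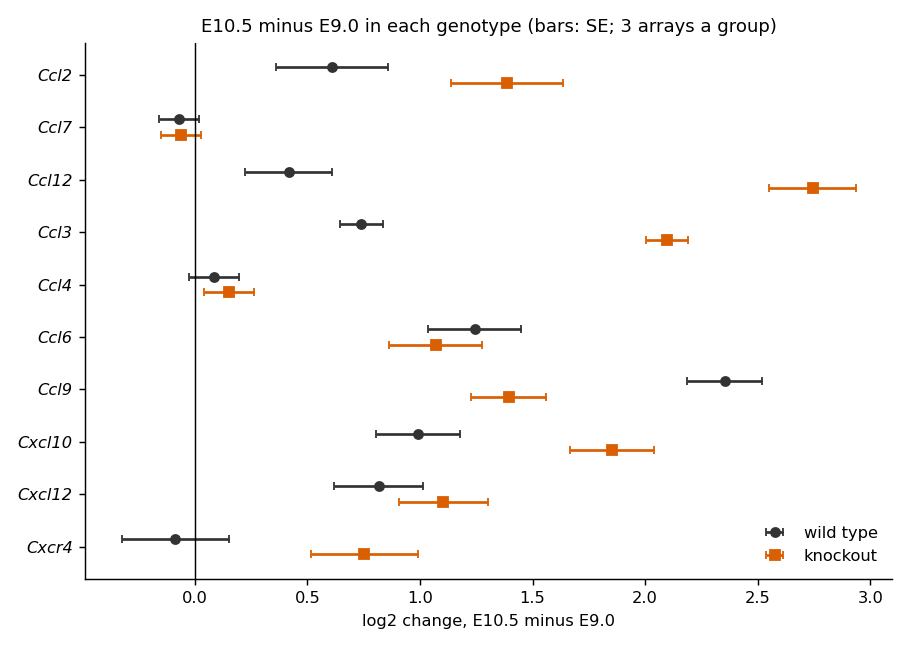
Log2 change from E9.0 to E10.5 (horizontal axis) of each gene in wild type (black circles) and knockout (orange squares), with bars for 1 SE, 3 arrays in each group. Ccl12, Ccl3, Cxcl10 and Ccl2 lie farther right in the knockout, Ccl9 lies farther right in wild type (2.35 against 1.39), and Ccl4 and Ccl7 lie near 0 in both.

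The genes whose arrays ran closest to Ccl12, Cxcl12 and Cxcr4 were found by the root mean square difference of mean-centred log2 values over the 12 arrays, among 9316 genes with an SD of at least 0.2. Nearest to Ccl12 were Ifit3 (0.30), Ifi202b (0.32), Ifit1 (0.32), Oasl2 (0.39) and Gbp3 (0.39). Nearest to Cxcl12 were Rerg (0.15), Lamtor2 (0.18), Maged2 (0.18), Ttc30b (0.19) and Lrp4 (0.21). Nearest to Cxcr4 were Olfm4 (0.20), Mndal (0.21), Tshz2 (0.21), Gpihbp1 (0.21) and Bhlhe40 (0.21). These distances describe the same 12 arrays and are no test.

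Other chemokine genes were called at E10.5 at a share near the 7.28% of all genes, 1 of 26 ligands and 2 of 21 receptors. Of 30 other ligands 26 were measured, and at E10.5 only Ppbp, a chemokine of platelet granules, was called, as lower, with a list median of -0.05. Ppbp read 8.89, 8.66 and 8.75 in wild type and 6.19, 7.30 and 6.86 in the knockout, so it fell by 1.98 on the log2 scale (SE 0.22, 3.95-fold, limma adjusted p = 0.000241). Of 23 other receptors 21 were measured, and at E10.5 Ackr3 and Cx3cr1 rose and 0 fell. Cx3cr1, the fractalkine receptor of macrophages, read 4.12, 4.22 and 4.35 in wild type and 5.11, 4.74 and 4.78 in the knockout, a log2 change of 0.65 (SE 0.12, adjusted p = 0.00695). At E9.0, 0 of these 26 ligands and 21 receptors passed in limma's test, where 1.18% of all genes were called, and 2 ligands and 1 receptor had an unadjusted p under 0.05. In wild type from E9.0 to E10.5, 4 ligands rose: Ppbp by 5.23, Pf4 by 2.54, Ccl27a by 1.17 and Ccl25 by 0.41, the first 2 being platelet chemokines. So did 4 receptors, Ccr1 by 0.88, Ackr3 by 0.85, Cx3cr1 by 0.57 and Ccr7 by 0.33, with adjusted p from 2.95e-08 for Ppbp to 0.0377 for Ccr7. Among all genes 22.2% were called there, 13.4% higher, so 4 of 26 ligands and 4 of 21 receptors lie near that share. The calls of Ccl25 and Ccr7 were each lost in 5 of the 12 fits that left out 1 array, each time a wild type array (adjusted p up to 0.135 and 0.12). Receptors of the inflammatory ligands, named for that role after their values were seen, did not pass at E10.5: Ccr2 had a log2 change of -0.12 (adjusted p = 0.765) and Ccr1 of -0.21 (adjusted p = 0.549).

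Of 25 genes of Cxcl12 and Cxcr4 signalling 23 were measured, and at E10.5 3 rose and 1 fell, where 7.28% of all genes were called. Rac2, a small GTPase of blood cells, rose by 0.51 (adjusted p = 0.0396), and the G protein subunits Gng2 and Gnai1 rose by 0.50 (adjusted p = 0.0272) and 0.49 (adjusted p = 0.0392). Arrb1, a beta-arrestin that uncouples receptors, fell by 0.58 on the log2 scale (adjusted p = 0.0207). These are weak calls: of the 12 fits that left out 1 array, Rac2 passed in 4, Gnai1 in 5, Gng2 in 7 and Arrb1 in 8, with adjusted p up to 0.168, 0.145, 0.115 and 0.0843. Arrb1 did not pass without E10.5 knockout replicate 1 or 2 or wild type replicate 1 or 3, and Gng2 without knockout replicate 1 or 2 or any E10.5 wild type array. At E9.0 only Rgs2, a regulator that shortens G protein signals, passed, as lower by a log2 change of -0.99 (adjusted p = 0.0451), and it passed in 4 of those fits (adjusted p up to 0.203). Among all genes 1.18% were called at E9.0. In wild type from E9.0 to E10.5, Grk3 and Rac2 rose by 0.66 and 0.62, and the receptor kinases Grk6 and Grk5 had log2 changes of -0.69 and -0.51, all past the threshold. These 4 of 23 genes are no larger a share than the 22.2% of all genes called there. Grk5 did not pass without E10.5 wild type replicate 1 or 3 or E9.0 wild type replicate 1 or 2 (adjusted p up to 0.113), and the others passed in every such fit.

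In the lists of immune signalling, 25 of 26 NF-kappa B and cytokine genes and 18 of 22 interferon response genes were measured. Of the former, Tlr3, a sensor of double-stranded RNA, rose by 0.74 at E10.5 (SE 0.11, adjusted p = 0.00217) and Il1r1, the interleukin 1 receptor, by 0.61 (SE 0.14, adjusted p = 0.0199), and 0 fell. These 2 of 25 genes lie near the share of all genes called at E10.5, which was 7.28%. Il1r1 did not pass without E10.5 knockout replicate 1 or wild type replicate 1 or 2 (adjusted p up to 0.0879). Tnf, Il1b and Ifnb1, inflammatory cytokines named for that role after their values were seen, had log2 changes of -0.14 (adjusted p = 0.753), 0.04 (adjusted p = 0.933) and -0.07 (adjusted p = 0.849). Of the interferon response genes 14 rose and 0 fell at E10.5, with a median log2 change of 1.44, led in p by Ifit3 (2.45), Ifit1 (2.43), Gbp3 (2.09) and Usp18 (2.37). At E9.0, 0 genes of either list passed in limma's test, with 3 and 4 at an unadjusted p under 0.05. In wild type between the stages, 10 interferon response genes rose and 0 fell, and of the other list Tlr4 rose by 0.45 while Nfkbiz and Nfkbie fell by 0.68 and 0.44 on the log2 scale. Among all genes 22.2% were called there, a larger share than the 3 of 25 genes of that other list. Tlr4 passed in 6 and Nfkbie in 2 of the 12 fits that left out 1 array, and Nfkbiz in all 12.

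**Figure D5:**
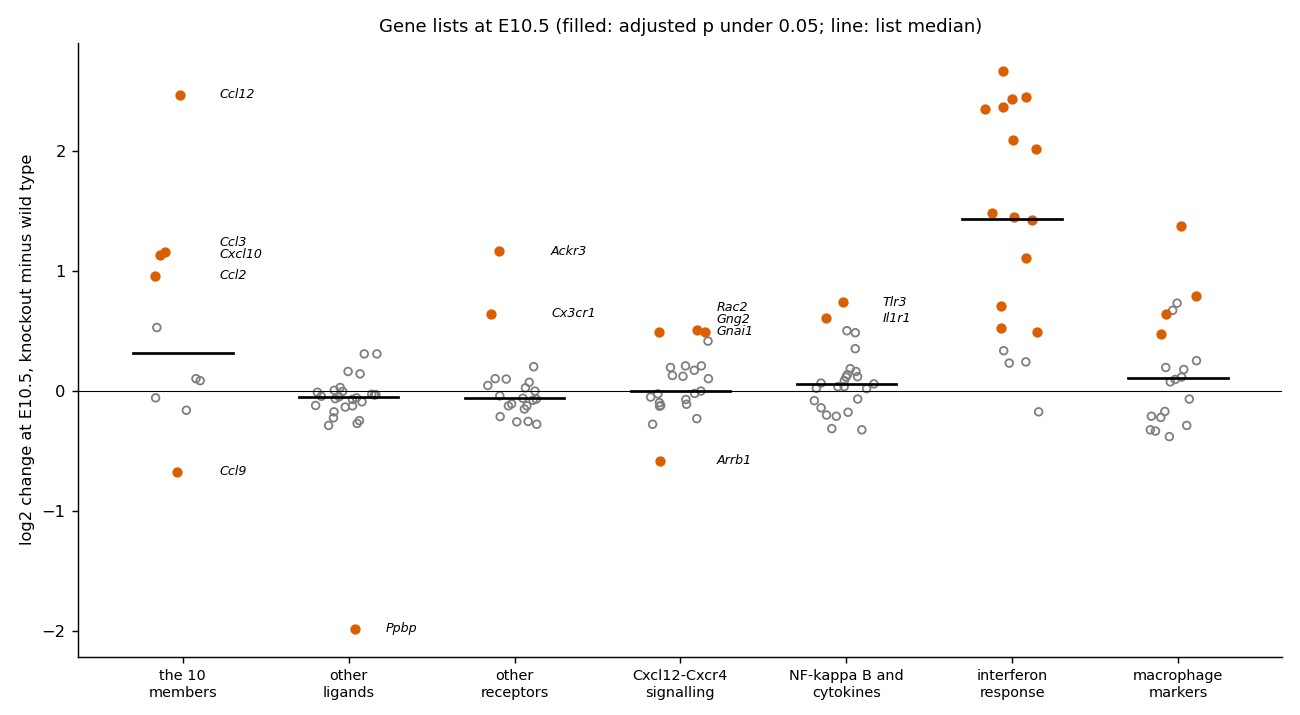
Log2 change at E10.5, knockout minus wild type (vertical axis), of the genes of 7 lists (horizontal axis), 1 point for each gene, filled where the limma adjusted p is under 0.05 (for the 10 genes a description), with a line for the list's median. Ccl12 is the highest point of its list at 2.47, Ppbp the lowest of all at -1.98, and the interferon list has a median of 1.44.

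The split of Cxcr4 and Cxcl12 among the E10.5 knockout pools ran alongside some marker lists and not others. The summed level of 9 embryo heart and neural markers was 2365, 804 and 1603 in knockout replicates 1, 2 and 3, against 473 to 572 in wild type, so replicate 2 was the lowest of the knockout. For 3 decidua and placenta markers it was 832, 184 and 900 in the knockout, replicate 2 again lowest, and 548, 1006 and 352 in wild type. Myl7, a heart muscle gene, had a log2 change of 3.21 (SE 0.56, adjusted p = 0.00477). The summed level of 14 endothelial markers was 4315, 3477 and 4548 in the knockout and 3486, 2706 and 3321 in wild type, with replicate 2 lowest in both, and that of 12 mesenchyme and smooth muscle markers was 39968, 36357 and 50594 in the knockout and 34520, 33014 and 38542 in wild type, again with replicate 2 lowest in both. Replicate 2 was the highest of the knockout for red cell markers (48641, 58096 and 53329) and granulocyte and early myeloid markers (399, 560 and 519). It was also highest for megakaryocyte and platelet markers (1645, 2076 and 1668) and lymphocyte markers (213, 233 and 228). The macrophage sums were 3103, 3083 and 3098, and the visceral endoderm sums 90078, 90516 and 95522. The part of any of these lists in the Cxcr4 and Cxcl12 values was not tested. For Ppbp, the 8 megakaryocyte and platelet markers, which include it, summed to 2200 to 2831 in wild type and 1645 to 2076 in the knockout at E10.5, and to 658 to 1072 and 551 to 580 at E9.0.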

How the data were processed

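Expression was measured on Affymetrix Mouse 430 2.0 arrays from 5 micrograms of total RNA of each pool. The deposited table gives log2 expression, for which the submitters' processing notes name RMA. RMA corrects background, brings all arrays to 1 distribution and summarises each probe set, so it removes a change shared by all transcripts and compresses those of dim probe sets. The RMA version is not given in the sources used here. Of 45101 probe sets, 64 controls were left out of tests and 34945 carried 1 gene symbol. The brightest probe set of each gene was used, which gave 18193 genes with no filter on low values, so all 10 genes described were tested.

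All 12 arrays entered 1 linear model, with a mean for each group (limma 3.58.1, R 4.3.3, lmFit and eBayes, 8 residual and 4.56 prior degrees of freedom, two-sided). Adjusted p-values are Benjamini-Hochberg values over all genes of 1 comparison, with a threshold of 0.05. The script was tested on simulated data. Groups and replicate numbers came from the sample titles. The genes, the 16 gene lists and the tests were chosen with earlier results of these data known. Named are the 10 genes, called genes of the chemokine, signalling and cytokine lists (at most 6 in each direction), at most 4 of each other list by smallest p, and Setd2. Others are said to be outside this rule. Alternatives were 3 choices of probe sets and filter, 2 scalings, an intensity trend, a replicate block, a batch block, replicates 1 and 2 alone, the compared groups alone and each array left out. After the data were seen, replicate 3 alone was added, 1 array against 1.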

Additional observations from a re-analysis of the deposited data

Results flagged for a closer look

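For 2 of the 10 genes the difference between the stages' knockout changes passed the threshold. Both values contain the comparison by which Ccl12 was chosen, so they are described and not tested. Ccl12 had a log2 difference of 2.33 (E10.5 change minus E9.0 change, SE 0.27). Ccl3 had one of 1.36 (SE 0.13), with every knockout array lower at E9.0 and higher at E10.5. In this comparison 0.187% of all genes were called.

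Of the 34 genes called for this stage difference, 32 lay outside the 10, and 12 of those belonged to the gene lists. The interferon response list held 8: Oasl2 (log2 difference 2.83), Ifit1 (2.51), Ifit3 (2.31), Usp18 (2.26), Gbp2 (2.15), Rsad2 (2.04), Gbp3 (1.96) and Ifitm3 (1.82), with limma adjusted p from 8.87e-05 for Ifit3 to 0.0464 for Gbp2. With 1 array left out, Ifit1, Ifit3, Oasl2, Usp18 and Gbp3 passed in all 12 fits, Ifitm3 in 10, Rsad2 in 6 and Gbp2 in 2. Oasl2, Rsad2, Gbp2, Ifitm3 and the heart muscle gene Tnnt2 are named here outside the naming rule, after their values were seen. Tnnt2 had a log2 difference of 2.95 (adjusted p = 0.0436) and passed in 3 of those fits.

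The other 3 were Ppbp, Tlr3 and Tyrobp. Ppbp had a log2 difference of -1.97 (adjusted p = 0.0244), Tlr3 one of 0.97 (adjusted p = 0.0363) and Tyrobp, a signalling adaptor of myeloid cells, one of 1.09 (adjusted p = 0.0363). Each of these 3 calls was lost in most fits with fewer arrays: of the 12 fits that left out 1 array, Ppbp passed in 5, Tlr3 in 3 and Tyrobp in 4, and the highest adjusted p was 0.0918, 0.106 and 0.114. Tyrobp was lower on every knockout array at E9.0 (-0.61) and higher on every one at E10.5 (0.48).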

How the results depend on the processing

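Over the 5 comparisons, the called changes of the 10 genes kept their sign in 396 of 396 alternative fits and their call in 374, and 14 of the 22 lost calls were at E10.5. Changes that were not called turned sign in 20 of 619 fits and were newly called in 11, of which 7 were in the wild type stage change. At E10.5, 5 of the 10 genes passed with all arrays, against 3 with only replicates 1 and 2, 3 with only the arrays of the groups compared, and 3 to 6 with 1 array left out. Leaving out 1 array gave 0 at E9.0, 2 to 3 for the stage difference, 5 to 7 for the wild type stage change and 7 to 8 for the knockout one, against 0, 2, 5 and 8. Among genes above the median level the only one of the 10 tested was Cxcl12, which gave 0 calls at E10.5 and for the stage difference and 1 in each stage change. For the other chemokine genes, counts of 0 at E9.0, 3 at E10.5 and 8 in wild type became 1 at E9.0 with a batch block, and 1 at E10.5 and 3 in wild type among genes above the median level. That last fit leaves out the dimmer chemokine genes, such as Cx3cr1, so they were not tested there. With 1 array left out the counts were 0, 3 to 4 and 6 to 9. Same-numbered arrays of the genotypes correlated over genes at 0.034 to 0.241 at E9.0 and 0.067 to 0.401 at E10.5. Differently numbered ones correlated at -0.362 to 0.260 and at -0.354 to 0.173. The titles give replicate numbers only, so the main fit used no pairs, and these values do not exclude a pairing. With a replicate block 0, 5 and 3 of the 10 genes passed at E9.0, at E10.5 and for the stage difference, and calls over all genes went from 100 higher and 115 lower to 153 and 196 at E9.0. At E10.5 they went from 750 and 575 to 969 and 845. With the batch block they were 225 and 251 at E9.0 and 1121 and 960 at E10.5. Neither block could be used for stage changes, because each lies within a stage. Fits over every probe set are given in the text beside the probe sets. Arrays carry no depth, and signal over background is not given, so the precision of dim probe sets is unknown.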
